A study of Homo sapiens with 6 samples.

Results

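The 10 genes described here, of 18678 in the table, belong to bone morphogenetic protein (BMP) signalling and are the ligands BMP2, BMP4 and BMP7, the antagonists NOG and FST, the inhibitory SMADs SMAD6 and SMAD7, and the targets ID1, ID2 and ID3. They were found by gene symbol, and the list was selected on the FPKM values (fragments per kilobase of transcript, scaled to the size of the library) of this same comparison. Their differences between the groups are therefore a description and carry no test. BMPs are secreted ligands of the TGF-beta superfamily. They bind type I and type II serine/threonine kinase receptors, which phosphorylate the transducers SMAD1, SMAD5 and SMAD9. These enter the nucleus with SMAD4 and activate the ID genes, whose products lack a DNA-binding region and hold E proteins away from DNA, together with the feedback inhibitors SMAD6 and SMAD7. Secreted antagonists such as Noggin bind the ligands outside the cell. In stratified epithelium the balance of ligands and antagonists is known to take part in keratinocyte growth and differentiation.

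Strand-specific mRNA libraries were made from Cal27, an established line of human tongue squamous carcinoma, and from Cal27-shGRK2, the same line with a short hairpin RNA against the G protein-coupled receptor kinase GRK2. Both were grown in serum-containing medium. Each group has 3 labelled libraries. The labels give neither a control vector for Cal27 nor the number of hairpins or clones, so a difference between the groups and a difference between cell populations cannot be told apart. Cal27-shGRK2 replicates 0 and 1 hold the same value in all 18678 genes and were counted as 1 library, which leaves 3 Cal27 and 2 Cal27-shGRK2 libraries, with no statement that they came from separate cultures. Any p-value measures the spread among these 5 libraries, which may be technical. GRK2 (listed as ADRBK1) stood at 55.3, 59.4 and 55.8 FPKM in the Cal27 libraries and at 17.3 and 16.6 FPKM in those of Cal27-shGRK2, a log2 fold change of -1.69 ± 0.06 (SE, limma adjusted p = 3.8e-11). By exact permutation of the 5 libraries p was 0.1 (two-sided), the smallest value possible. Sequencing depth is unknown from FPKM. The FPKM of all genes summed to 590163 to 644831 per library. Of 8 squamous epithelial markers, 6 were at or above 1 FPKM in every library, and the summed level of the list was 2893 to 3221 FPKM in Cal27 and 1416 to 1444 FPKM in Cal27-shGRK2. Most of that sum was KRT5, a basal keratin, at 2073 to 2322 FPKM in Cal27 and 740 to 773 FPKM in Cal27-shGRK2. KRT5, KRT14, KRT6A, TP63, SFN and DSG3 fell, while the adhesion genes CDH1 (log2 fold change 0.57, limma adjusted p = 5.6e-06) and EPCAM (0.45, limma adjusted p = 9.2e-05) rose. KRT14, at 16.5 to 20.9 FPKM in Cal27, was at 0.235 and 0.160 FPKM in Cal27-shGRK2, where DSG3 also lay under 1 FPKM. KRT6A was at 104 to 127 FPKM in Cal27 and at 6.03 and 15.4 FPKM in Cal27-shGRK2. Summed fibroblast markers (4 of 8 in the table) were at 4.35 to 4.71 and 4.38 to 4.46 FPKM. Summed blood markers (2 of 6 in the table, without the leukocyte gene PTPRC) were at 1.47 to 2.24 and 4.25 to 4.83 FPKM. Of these CD68, a lysosomal gene of macrophages, rose from 0.766 to 1.18 FPKM to 3.52 to 4.30 FPKM, and CD14, under the filter, was at 0.706 to 1.15 and 0.527 to 0.732 FPKM. The endothelial list was represented by CDH5 alone, at 3.50 to 3.97 and 6.80 to 7.01 FPKM. None of the listed markers in the table was at 0 in all libraries, and the part of any such cells in the results below was not tested. In such bulk libraries fewer cells expressing a gene and less RNA per cell cannot be told apart.

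In Cal27-shGRK2 cells ID1, ID3, BMP7, SMAD6, BMP2 and FST were lower, NOG and ID2 were higher, and BMP4 and SMAD7 overlapped with Cal27. For 8 of the 10 genes every Cal27-shGRK2 library lay outside the Cal27 range, below it for 6 and above it for 2. Of all 13377 genes tested, 53.3% had groups without overlap. The median log2 fold change of the 10 genes on log2(FPKM + 1) was -0.73, against -0.01 for all genes tested. The list was selected on this contrast and mixes ligands, antagonists, inhibitors and targets. Nothing is therefore read from that count or from that median. All 10 genes reached a mean of 1 FPKM over the 5 libraries, NOG through the Cal27-shGRK2 libraries alone.

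**Figure D1:**
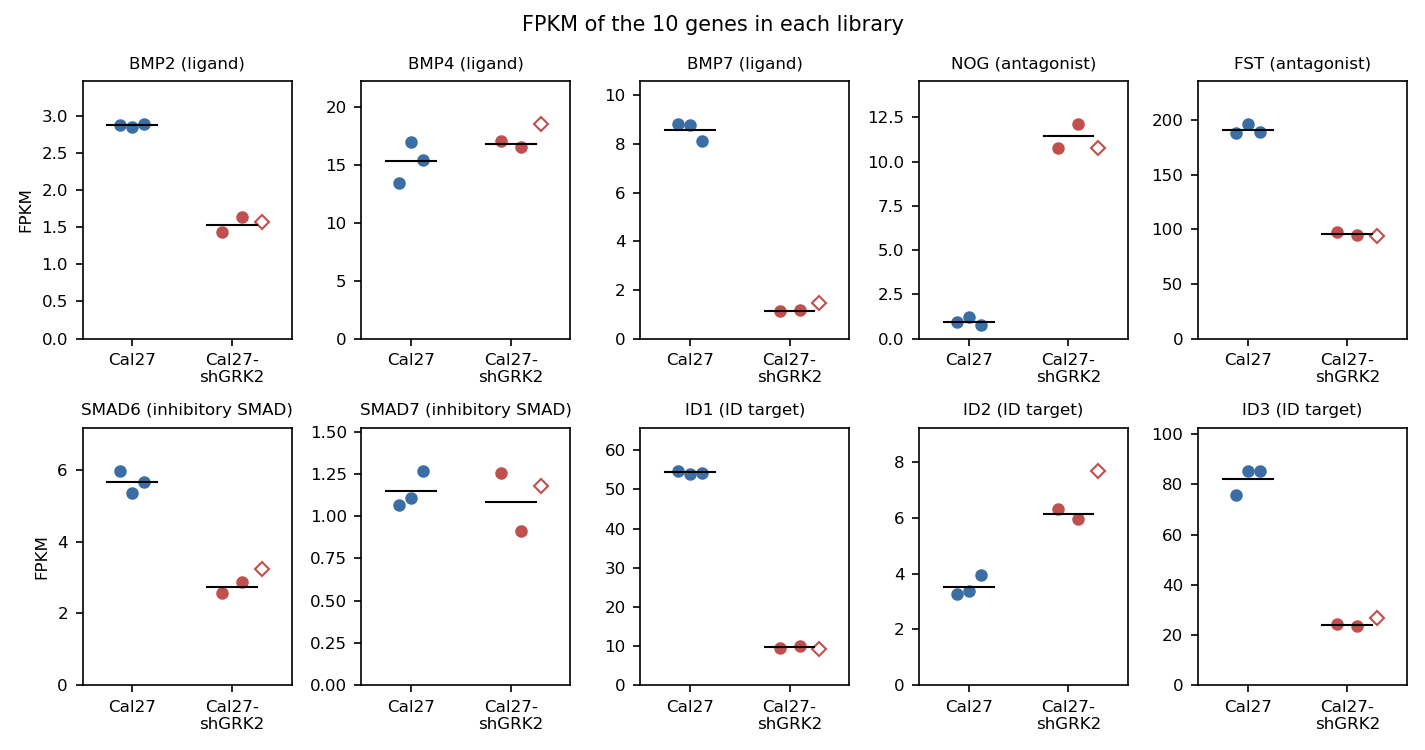
Each panel plots the FPKM (linear axis from 0) of 1 gene in the 3 Cal27 libraries (blue) and the 2 distinct Cal27-shGRK2 libraries (red), with the group mean as a line. The open diamond is the Cal27-shGRK2 library implied by the authors' mean, and is not part of the line. ID1 and BMP7 show the widest relative gaps downward and NOG upward.

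A further Cal27-shGRK2 value can be had for each gene from the authors' deposited table, which gives a value per condition. For Cal27 that value lay within 0.01% of the mean of the 3 library columns in 13339 of 13339 genes with at least 1 FPKM. For Cal27-shGRK2 it did so in 44 of 13307 genes, and the mean of the 2 distinct columns matched in 48. If the authors' value is a mean of 3 libraries there too, 3 times it less the 2 distinct libraries gives the value of the library whose column is missing. That value came out below 0 in 18 of the 13307 genes. It is an inference from the authors' mean and entered none of the group means given here. It is given in brackets beside the deposited values of each gene.

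Of the ligands, BMP7 differed most. BMP7, known from kidney and skeletal development, was at 8.81, 8.79 and 8.13 FPKM in Cal27 replicates 0, 1 and 2. In Cal27-shGRK2 it was at 1.13 FPKM in the library of replicates 0 and 1 and at 1.16 FPKM in replicate 2, with an implied value of 1.46 FPKM. All Cal27 libraries were high and all Cal27-shGRK2 libraries low, with nothing between. The mean was 7.51-fold lower (8.58 ± 0.387, SD, n = 3, to 1.14 ± 0.0213 FPKM, SD, n = 2), and BMP7 went from above 42.7% of the tested genes in Cal27 to above 3.69% in Cal27-shGRK2. BMP2, a ligand best known for inducing bone, was expressed at low levels, at 2.88, 2.85 and 2.89 FPKM in the Cal27 libraries and 1.43 and 1.64 FPKM in those of Cal27-shGRK2 (implied 1.57). Its groups did not overlap and its mean was 1.87-fold lower. BMP4, a close relative of BMP2, was at 13.5, 17.0 and 15.5 FPKM in the Cal27 libraries and at 17.1 and 16.6 FPKM in those of Cal27-shGRK2 (implied 18.5). Those ranges overlapped, with a 1.10-fold higher mean beside an SD of 1.77 FPKM among the Cal27 libraries. The implied value lay above all Cal27 libraries.

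On the per-length FPKM scale BMP4 was the most abundant of the ligands in every library, and more so where BMP7 was low. BMP4 made up 57.1% ± 3.10 (SD, n = 3) of the summed FPKM of the 3 ligands in Cal27 and 86.3% ± 0.970 (SD, n = 2) in Cal27-shGRK2. BMP7 made up 32.1% ± 2.48 and 5.86% ± 0.154. The sum itself was 25.2, 28.7 and 26.5 FPKM in the Cal27 libraries and 19.6 and 19.4 FPKM in those of Cal27-shGRK2, so it moved less than its composition.

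The antagonists differed in opposite directions. NOG encodes Noggin, which binds BMP2 and BMP4 tightly and BMP7 more weakly. NOG was low in Cal27, at 0.910, 1.20 and 0.760 FPKM, and at 10.8 and 12.1 FPKM in Cal27-shGRK2 (implied 10.8). The lowest Cal27-shGRK2 library lay 9.58 FPKM above the highest Cal27 library. The mean was 11.97-fold higher (0.957 ± 0.224 to 11.4 ± 0.941 FPKM), with a log2 fold change of 2.67 on log2(FPKM + 1). That scale understates low genes, and the authors' deposited table, which names no pseudocount, gives 3.55 for NOG. NOG went from above 1.09% of the tested genes to above 50.0%. Relative to the summed ligands it was at 0.0356 ± 0.00661 in Cal27 and 0.587 ± 0.0528 in Cal27-shGRK2, a ratio of RNA levels only.

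FST encodes follistatin, which binds activins most tightly and some BMPs. It was the most abundant of the 10 genes, above 96.4% of the tested genes in Cal27. Its FPKM was 188, 196 and 189 in Cal27 and 97.1 and 94.8 in Cal27-shGRK2 (implied 94.0). The libraries within a group lay close together and the groups far apart, a 1.99-fold lower mean. In absolute terms FST had the largest difference of the 10 genes, -95.1 FPKM, while NOG gained 10.5 FPKM. FST was at 206 ± 42.8 times the level of NOG in Cal27 and at 8.42 ± 0.830 times in Cal27-shGRK2.

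The inhibitory SMADs did not move as a pair. SMAD6, a feedback inhibitor that acts mainly on BMP receptors and SMAD1, was at 5.98, 5.35 and 5.67 FPKM in the Cal27 libraries and at 2.57 and 2.87 FPKM in those of Cal27-shGRK2 (implied 3.25). Its groups did not overlap, with a 2.08-fold lower mean. SMAD7, which inhibits both BMP and TGF-beta receptors, was at 1.06, 1.11 and 1.27 FPKM in the Cal27 libraries and at 1.25 and 0.912 FPKM in those of Cal27-shGRK2 (implied 1.18). One of its Cal27-shGRK2 libraries lay within the Cal27 range and the other below it, so the groups overlapped.

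ID1 and ID3 were both far lower, and ID2 was higher. ID1 was almost constant within Cal27, at 54.8, 54.0 and 54.3 FPKM, a coefficient of variation of 0.727%. In Cal27-shGRK2 it was at 9.35 and 9.96 FPKM (implied 9.28), a 5.63-fold lower mean with the groups 44.0 FPKM apart. ID1 went from above 85.2% of the tested genes to above 45.4%. ID3 was at 75.7, 85.3 and 85.4 FPKM in the Cal27 libraries and at 24.4 and 23.4 FPKM in those of Cal27-shGRK2 (implied 26.8), a 3.43-fold lower mean. Cal27 replicate 0 was the lowest of its group for ID3, yet stood far above both Cal27-shGRK2 libraries. ID2 was at 3.26, 3.37 and 3.97 FPKM in the Cal27 libraries and at 6.34 and 5.97 FPKM in those of Cal27-shGRK2 (implied 7.70). It was the only ID gene of the list that was higher, 1.74-fold, without overlap.

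ID1 and ID3 supplied most of the ID transcript in both groups on the per-length scale. The 3 genes together were at 134, 143 and 144 FPKM in the Cal27 libraries and at 40.1 and 39.4 FPKM in those of Cal27-shGRK2 (implied 43.8). ID2 was 2.52% ± 0.213 of that sum in Cal27 and 15.5% ± 0.450 in Cal27-shGRK2. Its share was higher both through its own level and through the lower levels of ID1 and ID3. The ratio of ID3 to ID1 was 1.51 ± 0.112 in Cal27 and 2.48 ± 0.184 in Cal27-shGRK2, so ID1 was reduced further than ID3.

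**Figure D2:**
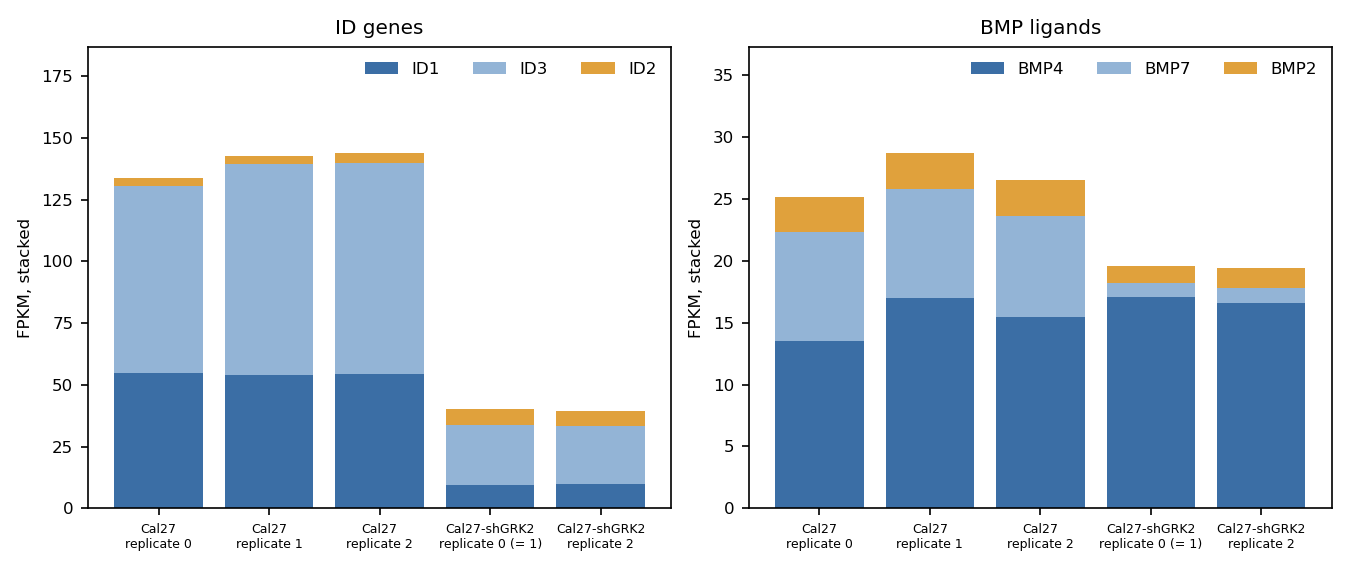
Stacked bars give the FPKM of the ID genes (left) and of the BMP ligands (right) in each distinct library, on linear axes from 0. The ID total is between 134 and 144 FPKM in Cal27 and 39.4 to 40.1 in Cal27-shGRK2. Among the ligands the BMP7 segment shrinks while the BMP4 segment stays at 13.5 to 17.1 FPKM.

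ID1 lies on chromosome 20 from 31605283 to 31606515 (plus strand, GENCODE release 29, hg38), as do BMP2 (6767664 to 6780280, plus) and BMP7 (57168748 to 57266629, minus), far from each other. ID3 is on chromosome 1 (23557918 to 23559794, minus), ID2 on chromosome 2 (8678845 to 8684453, plus), SMAD6 on chromosome 15 (66702228 to 66782848, plus), SMAD7 on chromosome 18 (48919853 to 48952052, minus), BMP4 on chromosome 14 (53949736 to 53958761, minus), NOG on chromosome 17 (56593699 to 56595590, plus) and FST on chromosome 5 (53480409 to 53487134, plus). All 10 are protein-coding. BMP7 overlaps the antisense gene BMP7-AS1 and ID2 overlaps ID2-AS1, and since no source used here states whether the authors counted by strand, reads of these partners cannot be told apart from BMP7 and ID2. SMAD6 overlaps AC013564.1, an intronic gene on the same strand, which strand cannot separate from SMAD6. The authors' own locus begins at 8666636 for ID2 and ends at 48950711 for SMAD7, unlike the GENCODE positions given above. The 5′ ends of ID1 and SMAD6, which are SMAD targets that were lower, are shown as examples. ID3, another such target, is not shown. Each line is the 250 bases before the RefSeq start (build GRCh38.p14, plus strand), with the core SMAD-binding letters GTCT and its reverse complement AGAC in capitals.
ID1: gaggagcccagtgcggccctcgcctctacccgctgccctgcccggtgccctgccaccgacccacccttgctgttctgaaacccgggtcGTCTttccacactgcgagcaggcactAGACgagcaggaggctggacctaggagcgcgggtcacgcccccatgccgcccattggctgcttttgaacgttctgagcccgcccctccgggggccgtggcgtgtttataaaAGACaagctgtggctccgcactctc
SMAD6: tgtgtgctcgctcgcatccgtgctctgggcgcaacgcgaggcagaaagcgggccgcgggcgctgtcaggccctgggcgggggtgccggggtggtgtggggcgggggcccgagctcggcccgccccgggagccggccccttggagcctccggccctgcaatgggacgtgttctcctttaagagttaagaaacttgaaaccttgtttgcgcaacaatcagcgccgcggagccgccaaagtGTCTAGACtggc

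The ID1 window (chr20:31605039-31605288) holds 3 copies of the core, at 162, 136 and 25 bases before the start. In the SMAD6 window (chr15:66701986-66702235) the 2 copies adjoin to form the palindrome GTCTAGAC, which begins 12 bases before the start. ID1 and SMAD6 have 1 window each. Of 27305 RefSeq genes, with 1 window taken for each, 77.6% held the 4-letter core on either strand and 0.176% held the palindrome, a motif searched for after the sequences were seen. The 6-letter GC-rich element GGCGCC, which BMP SMADs can also bind, was in neither window, nor was CAGAC, a longer form that contains the core. Sequence further upstream was not searched, so their absence holds for these windows only. GGCGCC was in 16.1% and CAGAC in 37.8% of all windows. Of the 10 genes, 7 had at least 1 window. All 7 held the core in at least 1 window, among them ID2, which was higher, and BMP4 and SMAD7, whose groups overlapped. BMP4 and SMAD7 have more than 1 window each, and 1 BMP4 window held no core. For them the share with 1 window per gene is therefore not a like measure. The ID3 window held 2 copies of the core and 1 CAGAC. A match is a match of letters and not a measured binding site.

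The other genes of the pathway were taken from a list of 64 ligands, receptors, modulators, transducers, targets and E proteins that leaves out the 10 genes. Of these, 44 were in the table and 28 reached a mean of 1 FPKM. They were tested with limma on log2(FPKM + 1), with Benjamini-Hochberg adjustment over all 13377 genes. Of the 28, 8 rose and 2 fell, or 35.7%, where 29.6% of all genes tested passed, 15.0% higher and 14.6% lower. The share called is close to that of all genes, and the median log2 fold change was 0.10. The split over all genes was 2008 higher and 1949 lower. Scaling every library to the same FPKM sum before the filter and pseudocount raised the number tested to 14483. That setting gave 2927 higher and 1575 lower, with 12 higher and 2 lower for the pathway list. Without the library of Cal27-shGRK2 replicates 0 and 1 the number of lower genes was 1088, and without replicate 2 of that group the number of higher genes was 1218.

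The activin subunits INHBA and INHBB rose, while the receptors and transducers of BMP signalling that reached 1 FPKM did not pass. The receptor BMPR1B, under the filter, is given further below, and SMAD9 is not in the table. INHBA, the beta A subunit of activin A, was at 7.43, 8.57 and 8.01 FPKM in the Cal27 libraries and at 21.7 and 23.8 FPKM in those of Cal27-shGRK2, a log2 fold change of 1.40 ± 0.08 (SE, n = 3 and 2, limma adjusted p = 3.5e-09). INHBB, the beta B subunit, rose from 24.2 ± 1.35 to 33.7 ± 1.79 FPKM (0.46 ± 0.07, limma adjusted p = 1.2e-04). Activins are the main ligands bound by follistatin, whose RNA was lower in the same libraries. The type I receptors ACVR1 (0.11 ± 0.08) and BMPR1A (0.10 ± 0.09) and the type II receptors BMPR2 (0.16 ± 0.10) and ACVR2A (-0.05 ± 0.11) did not pass (limma adjusted p = 0.33, 0.47, 0.25 and 0.80). The transducers SMAD1 (-0.01 ± 0.09), SMAD5 (-0.05 ± 0.10) and SMAD4 (0.11 ± 0.10) did not pass either (adjusted p = 0.93, 0.75 and 0.45 in limma). Of these, SMAD5 was the most abundant, at 10.9 ± 1.21 FPKM in Cal27 and 10.5 ± 1.28 FPKM in Cal27-shGRK2.

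Among secreted modulators FSTL1, a follistatin-like glycoprotein, rose from 19.1 ± 0.710 to 32.3 ± 0.364 FPKM (log2 fold change 0.72 ± 0.07, limma adjusted p = 6.0e-07). FSTL3, an activin-binding relative of follistatin, rose from 3.72 ± 0.0729 to 5.92 ± 0.275 FPKM (0.55 ± 0.08). TWSG1, which helps chordin bind BMPs, rose by 0.26 ± 0.07, and RGMB, a BMP co-receptor, by 0.42 ± 0.10. The calls of TWSG1 and RGMB were lost without Cal27-shGRK2 replicate 2 (limma adjusted p = 0.063 and 0.095). NBL1, another BMP antagonist and the most abundant of these, had a value of 0.17 ± 0.06 that did not pass (adjusted p = 0.052 in limma), and it passed under all 3 rescalings (adjusted p = 0.012 to 0.036 in limma, in a range of 0.0085 to 0.24 over all alternatives). GDF11, RGMA, BMP1, SKI, SKIL, LEMD3 and PPM1A did not pass either, with values from -0.23 to 0.21. SKIL, a SMAD corepressor, passed under 2 of the 3 rescalings (limma adjusted p = 0.045 and 0.022).

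Inside the cell, SMURF2, a ubiquitin ligase that acts on SMADs and receptors, rose from 25.9 ± 0.606 to 47.7 ± 2.14 FPKM (0.86 ± 0.06, limma adjusted p = 7.0e-08), whereas its relative SMURF1 had a value of 0.08 ± 0.08 that did not pass. Whether SMURF2 and SMURF1 differ in response was not tested. Among further targets the homeobox gene MSX2 fell, from 5.06 ± 0.349 to 2.63 ± 0.311 FPKM (-0.74 ± 0.10, limma adjusted p = 2.6e-05). RUNX2, a transcription factor of bone formation, rose from 4.37 ± 0.0992 to 7.997 ± 0.110 FPKM (0.74 ± 0.08, limma adjusted p = 4.2e-06). MSX1 had a value of 0.09 ± 0.11 and did not pass. TCF3, an E protein that ID proteins bind, fell from 53.0 ± 1.28 to 41.5 ± 0.480 FPKM (-0.35 ± 0.06, limma adjusted p = 4.3e-04), and TCF12, another E protein, had 0.20 ± 0.10 and did not pass (limma adjusted p = 0.14). TCF12 passed without Cal27 replicate 2 (limma adjusted p = 0.041) and with the implied library added (0.042).

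**Figure D3:**
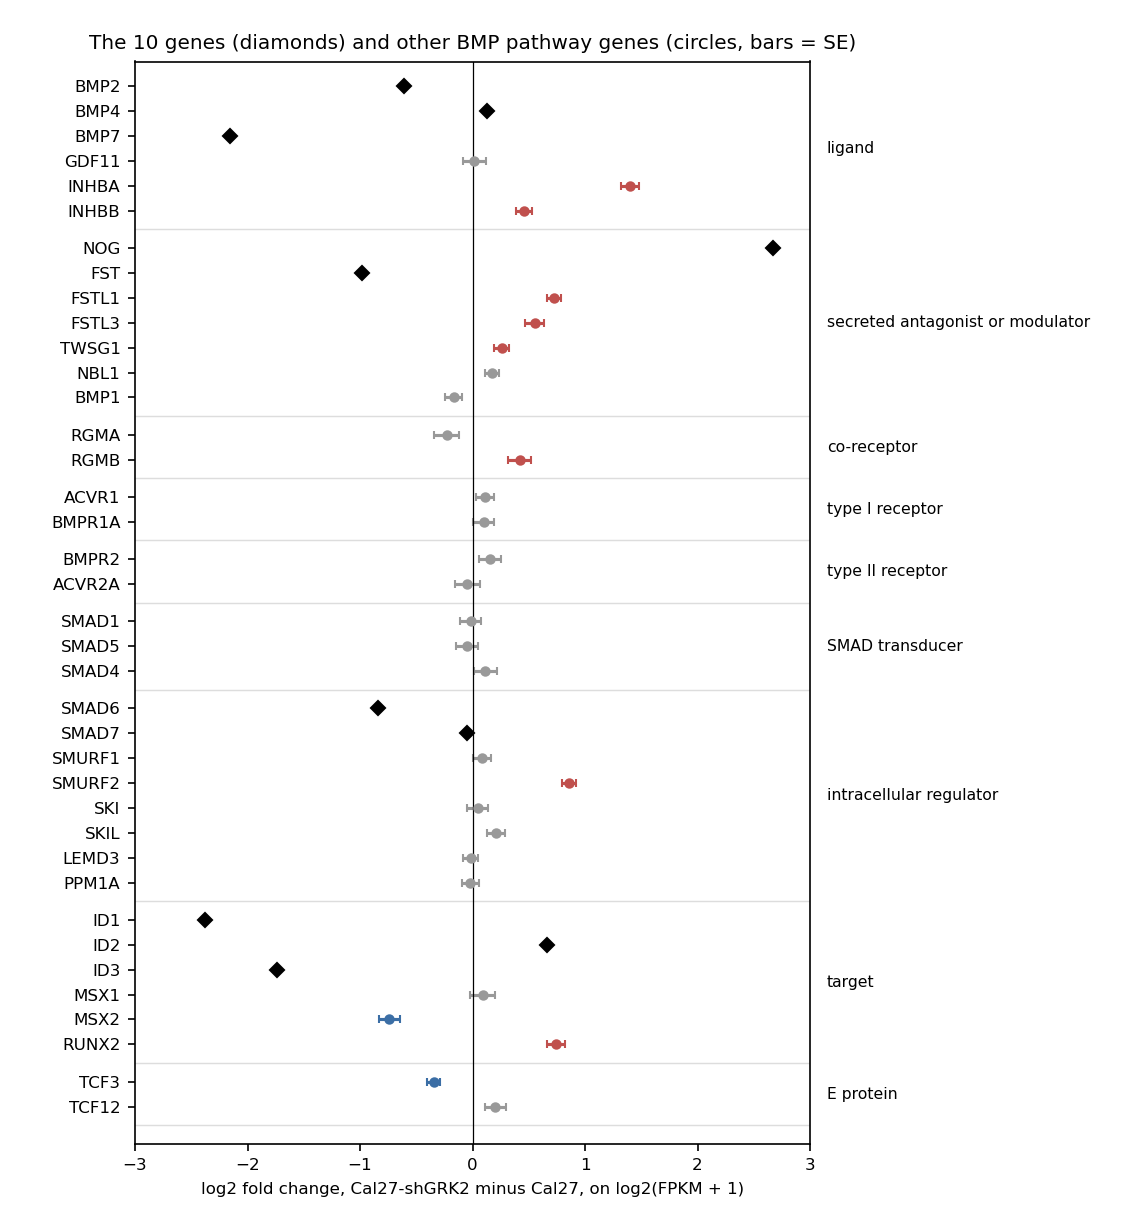
The log2 fold change of Cal27-shGRK2 against Cal27 on log2(FPKM + 1) is plotted for the 10 genes (black diamonds, no test) and for the 28 other pathway genes tested (circles with SE; red rose, blue fell, grey did not pass), by role. NOG (2.67) and ID1 (-2.38) lie at the ends, and the receptors and SMAD transducers lie near 0.

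A further 16 genes of the list lay under 1 FPKM and were tested only in the fit with no filter, where 21.9% of 18678 genes passed. Of the 16, 5 rose, 5 fell and 6 did not pass. BMP5, a ligand related to BMP7, was at 0.412, 0.220 and 0.309 FPKM in the Cal27 libraries and at 1.93 and 1.90 FPKM in those of Cal27-shGRK2 (log2 fold change 1.15, limma adjusted p = 4.5e-05). CHRDL1, a chordin-like antagonist, was at 0.0369, 0.0858 and 0.0656 FPKM in the Cal27 libraries and at 1.40 and 1.503 FPKM in those of Cal27-shGRK2 (1.21, limma adjusted p = 1.4e-05). These and BMPER, a modulator that rose by 0.61, were at most 1.93 FPKM in any library. The targets ID4 (-0.35), ATOH8 (-0.36) and HEY1 (-0.32), the receptor BMPR1B (-0.46) and the antagonist SOSTDC1 (-0.35) fell (limma adjusted p = 0.0085 to 0.030). The log2(FPKM + 1) scale understates such low genes. By the ratio of means they were 6.53-, 9.34-, 2.02-, 7.97- and 7.88-fold lower in that order, all from levels under 1 FPKM. SOSTDC1 is listed at 0 in Cal27-shGRK2 replicate 2. BMP8B and the E protein TCF4 rose by 0.37 each (limma adjusted p = 0.015 and 0.040). TCF4 was at 0.365, 0.182 and 0.482 FPKM in Cal27 and at 0.730 and 0.719 FPKM in Cal27-shGRK2. Its implied value of 0.371 FPKM lay within the Cal27 range. ID4, the remaining ID gene, was at 0.302, 0.400 and 0.310 FPKM in the Cal27 libraries and at 0.0269 and 0.0764 FPKM in those of Cal27-shGRK2, so it lay on the side of ID1 and ID3 and not of ID2.

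The 10 genes were set beside their chromosomal neighbours, the 3 nearest tested protein-coding genes on either side. Of the 60 neighbours 9 rose, 13 fell and 38 did not pass, or 36.7% called where 29.6% of all genes were, with a median log2 fold change of -0.01. Their distances ran from 26.7 to 5908 kb, so some are not local. Around ID1 the neighbours ranged from -0.30 to 0.46, and around NOG from -0.25 to 0.64. The low end for ID1 was ZNF337, 5908 kb away. Both ends for NOG, STXBP4 and MMD, lay 1420 and 1172 kb away. The neighbours of BMP7 ranged from -0.57 to 0.68. On chromosome 20, which carries ID1, BMP2 and BMP7, 57 of 361 tested genes were called higher and 53 lower, and the median was 0.00283. Near SMAD6 lies SMAD3, a transducer of TGF-beta and activin, which rose from 38.4 to 52.1 FPKM (0.43 ± 0.07, limma adjusted p = 2.3e-04). PMEPA1, a known TGF-beta target that lies near BMP7, rose from 24.3 to 39.6 FPKM (0.68 ± 0.07, limma adjusted p = 2.1e-06). Both were singled out after their values were seen.

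**Figure D4:**
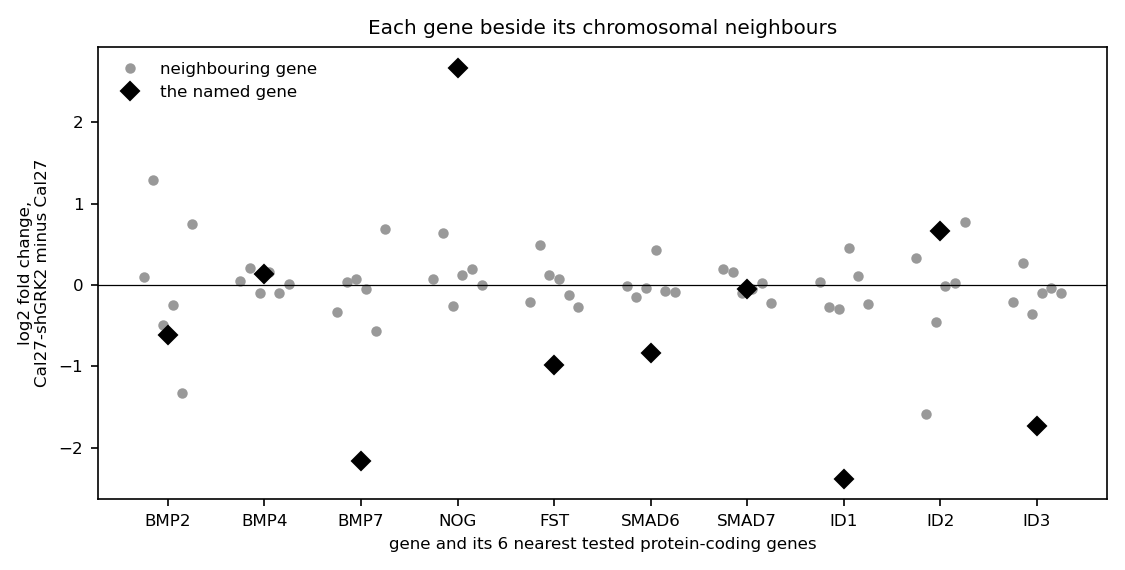
Black diamonds give the log2 fold change of each of the 10 genes on log2(FPKM + 1), and grey circles those of its 6 nearest tested protein-coding genes. The left-to-right position of the circles is not to be read as order along the chromosome. For BMP7, NOG, FST, SMAD6, ID1 and ID3 the gene lies outside the range of its own neighbours, while BMP2, BMP4, SMAD7 and ID2 lie within theirs. The 10 genes were selected on this contrast and the neighbours were not, so nothing is read from that difference.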

How the data were processed

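Gene expression was measured by stranded RNA sequencing in Cal27 and in Cal27-shGRK2. Per the submitters' processing notes, the authors used Bowtie2 2.2.6, TopHat2 2.1.0, Cuffdiff 2.2.1 and build hg38. No source used here gives the role of each tool, the annotation or the strand setting. Per the file headers, the authors' table holds FPKM for each library and for each condition. It also holds the authors' log2 fold change, p-value, q-value and a test score. Only the condition values and log2 fold changes were used of these. A deposited FPKM of 0.0001 was read as 0. Because FPKM are estimates, depth is unknown, and no interval for counting error can be given.

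Identical columns were counted as 1 library. The test covered the 13377 genes whose mean over the 5 distinct libraries reached 1 FPKM. Values were taken as log2(FPKM + 1) and fitted by limma 3.58.1 in R 4.3.3 (trend, robust, two-sided, 3 residual degrees of freedom), with Benjamini-Hochberg adjustment over all genes and a threshold of 0.05. The fit was tested on simulated data. Gene identifiers were matched to GENCODE release 29 (99.1% found) and sequences come from RefSeq (GRCh38.p14). The 10 genes and all lists were chosen with earlier results of these data known. The genes named are the 10 genes, GRK2, the pathway genes by role, and for the largest rise and fall on log2(FPKM + 1) the 3 genes of nearest pattern among those with a mean of at least 5 FPKM. The neighbours, the ratios between genes, the 4-letter and palindromic motifs and the implied library were added after the values or sequences were seen. Alternatives changed the pseudocount, filter, scaling, model, replicate block and libraries.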

Additional observations from a re-analysis of the deposited data

How the results depend on the processing

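Leaving out 1 library cannot turn the direction of a gene whose groups do not overlap, and the filters leave fold changes as they are, so direction is not counted here. A pseudocount of 0.1 gave log2 fold changes of 3.47 for NOG and -2.80 for BMP7, and SMAD7 ranged from -0.17 to 0.07. Leaving out 1 library gave 2600 to 4028 genes past the threshold, 1218 to 2205 higher and 1088 to 1843 lower. The count was 2600 without the library of Cal27-shGRK2 replicates 0 and 1, where 1088 were lower, and 1218 were higher without replicate 2 of that group. With no filter 20 other pathway genes passed, 13 higher and 7 lower, as more genes were tested. With a mean of at least 5 FPKM 1 was lower, as MSX2 then lay under the filter. Common numbers pair at most 2 libraries of each group. Deviations of same-numbered libraries correlated at 0.0801 and 0.0167 (-0.0714 with the shared library taken as replicate 1). With 2 Cal27-shGRK2 libraries the deviations of that group are mirror images, so these values are not independent. They cannot tell whether same-numbered libraries share a culture or batch. With the replicate block 3960 or 3481 genes and 11 or 10 pathway genes passed, depending on whether the shared library was taken as replicate 0 or 1. With 2 distinct Cal27-shGRK2 libraries the spread of that group is poorly known, and unknown depth limits what values under 1 FPKM can show.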

Other observations

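Genes of nearest pattern were found by Euclidean distance between centred log2(FPKM + 1) values over the 5 libraries, among 8811 genes. These had a mean of at least 5 FPKM, and the 10 genes and symbols of antisense, microRNA, small nucleolar, long intergenic and placeholder genes were left out. NOG and ID1 were taken as the largest rise and fall on log2(FPKM + 1), a scale on which ID1 was at -2.38 and BMP7 at -2.16, whereas by the ratio of means BMP7 was further down (7.51-fold against 5.63-fold). Nearest to NOG were the cystatin CST6 (distance 0.22), the collagen VI chain COL6A2 (0.29) and the transglutaminase TGM2 (0.30). CST6 was at 27.7, 29.1 and 27.5 FPKM in Cal27 and at 180 and 217 FPKM in Cal27-shGRK2. TGM2 was at 7.12, 9.09 and 8.21 FPKM and at 49.2 and 51.5 FPKM. Nearest to ID1 were OASL (0.14) and IFI27 (0.19), which are interferon-stimulated genes, and CSTA (0.18), a cystatin of the cornified envelope. OASL was at 14.4, 15.9 and 14.9 FPKM in Cal27 and at 2.12 and 2.03 FPKM in Cal27-shGRK2. With 5 libraries in 2 groups, nearness mostly says that the difference between the groups was of like size.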
